A study of Mus musculus with 12 samples.

Results

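Marcks, Marcksl1, Gap43 and Basp1 encode lipid-anchored proteins of the inner face of the plasma membrane that are linked to neuronal growth. They were followed here in cerebellar RNA of mice carrying a spinocerebellar ataxia type 1 allele. The 4 genes were taken by name from the 55401 genes of the count tables, and all 4 were among the 19378 genes with enough reads to be tested. The list was chosen by name with earlier results of these data known. The result named in that choice was the higher Marcks level in the knock-in libraries. The Marcks difference between genotypes is therefore given as a description, with no test.

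RNA came from the whole cerebellum of 12 mice, 1 library per mouse, in 3 groups of 4. The WT DMSO group held wild-type mice given dimethyl sulfoxide (DMSO), the solvent. The Het DMSO group held heterozygous Atxn1 154Q/2Q knock-in mice, with 1 long-repeat Atxn1 allele, given the same solvent. The Het Hit 2 group held mice of that genotype given Hit 2, 1 of the compounds the series describes as selective for CAG repeats, at 25 mg/ml in DMSO. All mice were injected intraperitoneally each day from 18 weeks of age, in 2 courses of 5 days with 2 days of rest between them, with less than 4 ml/kg of DMSO. All were perfused under urethane on the last injection day, at 20 weeks. The knock-in allele sits in the Atxn1 gene itself rather than in a transgene with its own promoter. No wild-type group received Hit 2 in the libraries analysed here, so the compound was compared only within Het mice. Libraries were depleted of ribosomal RNA and kept the strand.

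The MARCKS protein and its relative, the product of Marcksl1, are held to the membrane by a myristate on an N-terminal glycine and by a short basic stretch, the effector domain, that binds the lipid PIP2, calmodulin and actin. Protein kinase C phosphorylates that stretch and releases the protein from the membrane. The products of Gap43 and Basp1 act alongside them at the growing tips of axons and at synapses: GAP-43 is held by palmitates on N-terminal cysteines and binds calmodulin through an IQ motif, and BASP1 carries a myristate. In the cerebellum GAP-43 is best known from climbing fibres, the axons that reach Purkinje cells from the inferior olive, and Purkinje cells are the neurons most affected in spinocerebellar ataxia type 1.

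The starts of the 4 coding sequences show the difference in lipid anchor. Each line gives the first 15 codons, 5′ to 3′, from the GENCODE M21 transcripts (mouse build GRCm38). Capitals mark a glycine codon at position 2 or, in Gap43, cysteine codons.
Marcks: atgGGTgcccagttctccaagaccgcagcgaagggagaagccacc
Marcksl1: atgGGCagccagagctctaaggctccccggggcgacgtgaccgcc
Gap43: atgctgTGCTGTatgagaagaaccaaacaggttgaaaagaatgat
Basp1: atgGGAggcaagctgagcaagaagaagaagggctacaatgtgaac
Marcks, Marcksl1 and Basp1 had glycine as codon 2, whereas Gap43 had cysteine as codons 3 and 4. Marcksl1, with 200 coding codons, was the shortest of the 4, and Marcks, with 309, the longest. Gap43 had 227 and Basp1 226.

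The basic stretches show how close Marcks and Marcksl1 are. Each line holds 25 codons, with lysine codons in capitals: the effector domain of Marcks (codons 145 to 169) and the stretch of Marcksl1 that matches it best (codons 86 to 110).
Marcks: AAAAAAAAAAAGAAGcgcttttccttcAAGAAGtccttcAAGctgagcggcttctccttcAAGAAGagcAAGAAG
Marcksl1: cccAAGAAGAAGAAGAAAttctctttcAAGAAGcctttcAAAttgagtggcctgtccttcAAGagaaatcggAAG
Marcks had 12 lysine codons in this stretch and Marcksl1 10. Between the 2 stretches 52 of 75 bases and 11 of 25 codons were identical, and 18 of 25 codons encoded the same amino acid. Because Hit 2 belongs to compounds described as selective for CAG repeats, CAG units in a row were counted. The counts cover the whole transcripts of each gene, beyond the coding sequence. The longest run was 3 units in Marcksl1, 2 in Marcks and 1 in Gap43 and Basp1.

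Depth ranged from 15855751 to 45265719 reads assigned to genes per library, and levels are given in CPM, each gene's reads as a share of a library scaled to a common size after TMM correction. Libraries are named by animal number, and 2 Het DMSO libraries stood apart. Reads unassigned to a gene were 45.4% in 409 and 44.7% in 411, against 51.0% to 54.6% in the other 10, and multimapping reads were 7.01% and 5.91%, against 4.08% to 4.89%. The granule cell markers summed to 9123 CPM in 409 and 218 CPM in 411, against 4089 to 7060 CPM in the others. In library 411, labelled cerebellum, defining markers of cerebellar neurons were near 0: the granule cell gene Gabra6 was at 0.606 CPM and the Purkinje cell gene Pcp2 at 0.555 CPM. Slc17a6, a glutamate transporter gene on the midbrain list, was at 278 CPM there. Fitted differences of the 4 genes that involve Het DMSO are therefore also given without 1 or both of them; without both, Het DMSO holds 2 libraries. Xist RNA, made in females, was above 100 CPM in 2 of 4 WT DMSO libraries and in 0 of 8 Het libraries, so sex differed in part with genotype. The labels do not say whether the mice shared litters, cages or days.

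Marcks was the most even of the 4 genes within groups and the one whose genotypes separated. Its level was 66.1, 77.4, 70.7 and 60.3 CPM in WT DMSO libraries 413, 425, 426 and 431. In Het DMSO it was 152, 118, 138 and 127 CPM in libraries 409, 411, 420 and 429. In Het Hit 2 it was 111, 106, 132 and 93.0 CPM in libraries 410, 421, 422 and 430. All 8 Het libraries lay above all 4 WT DMSO libraries, the closest being 430 at 93.0 CPM and 425 at 77.4 CPM.

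The Marcks mean was 68.6 ± 7.24 CPM in WT DMSO, 134 ± 14.5 CPM in Het DMSO and 111 ± 16.1 CPM in Het Hit 2 (SD, n = 4 each). The ratio of means to WT DMSO was 1.95 for Het DMSO and 1.61 for Het Hit 2. The fitted log2 difference was 0.96 (SE 0.13) for Het DMSO, 0.69 (SE 0.13) for Het Hit 2 and 0.82 (SE 0.12) for both Het groups together. Both Het groups are set against the same 4 WT libraries. Of all 19378 genes, 376 (1.94%) had every Het DMSO library above every WT DMSO library, 562 (2.9%) had every Het Hit 2 library above them, and 120 (0.619%) had all 8 above. Since Marcks was listed for this difference, nothing is read from its place among them.

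**Figure D1:**
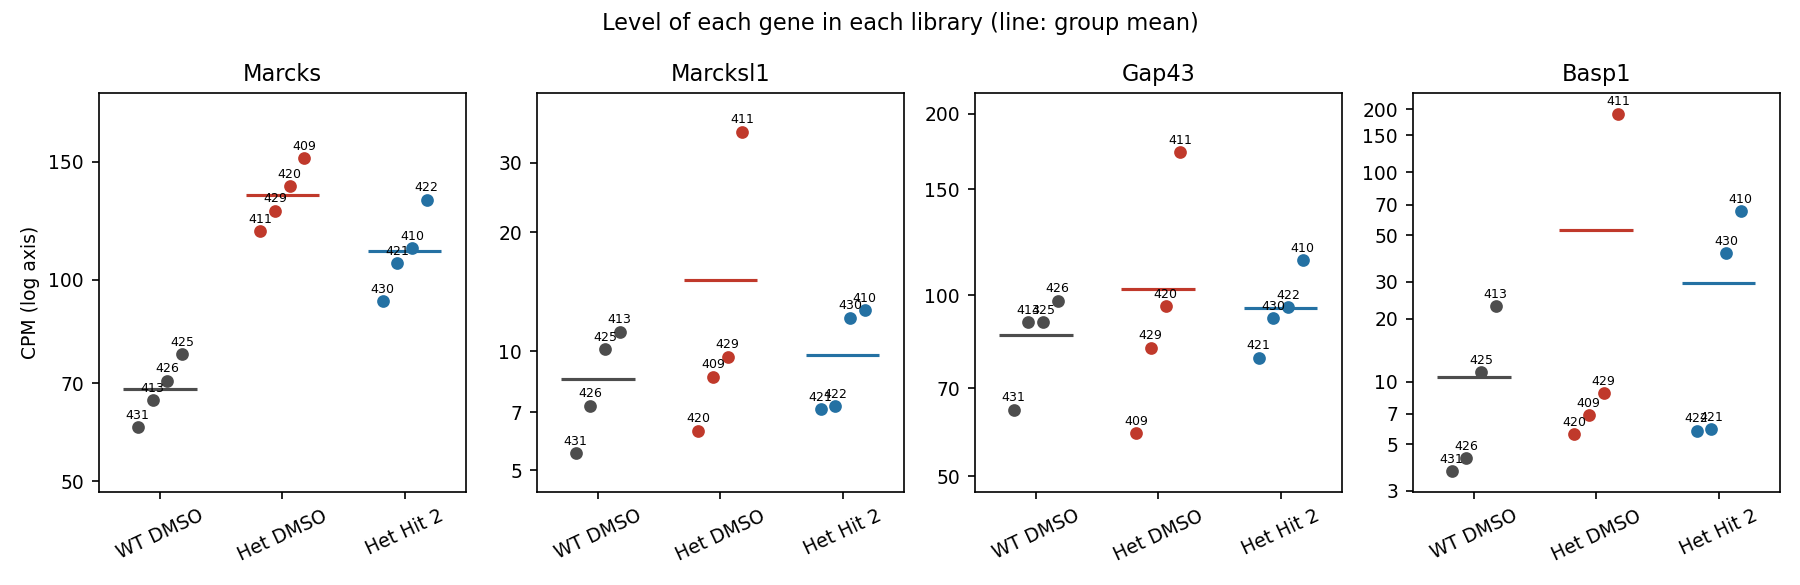
Level of each gene in CPM (log axis) in each of the 12 libraries, 1 point per library with its animal number, with a line at each group's mean. Marcks separates WT DMSO, at most 77.4 CPM, from all Het libraries, at least 93.0 CPM, while Basp1 spreads widely within each group and peaks at 190 CPM in library 411.

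Leaving out libraries 409 and 411 left the Marcks differences at 0.93, 0.67 and 0.80 for Het DMSO, Het Hit 2 and both groups together. In library 411 Marcks was at 118 CPM, and the summed granule cell and Purkinje cell markers were at 218 and 886 CPM. The part of cell make-up in the Marcks level of that library was not tested. With sex as a covariate, read from Xist above 100 CPM, the 3 differences were 1.08, 0.81 and 0.94. Only 2 of 4 WT DMSO libraries and no Het library passed that level, so the covariate varied within WT DMSO alone.

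The summed Purkinje cell markers and the summed Bergmann glia and astrocyte markers separated the genotypes as Marcks did, in the other direction. The 10 Purkinje cell markers summed to 8022 to 8376 CPM in WT DMSO, 886 to 7235 CPM in Het DMSO and 3624 to 7000 CPM in Het Hit 2. The 10 Bergmann glia and astrocyte markers summed to 2959 to 3191 CPM, 2427 to 2879 CPM and 2632 to 2717 CPM in the same order. Gene by gene, all 8 Het libraries lay below all 4 WT DMSO libraries for 6 of the 10 Purkinje cell markers and 2 of the 10 glial markers, Slc1a3 and Gdf10, beside 228 (1.18%) of all genes. Every gene of both lists had reads in every library. The part of either list in the Marcks difference was not tested. In bulk tissue fewer cells of a type and less RNA per cell cannot be told apart, nor can more cells and more RNA per cell.

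Hit 2 treatment within Het mice gave no Marcks difference past the threshold. The mean was 111 CPM with Hit 2 and 134 CPM with DMSO, a ratio of 0.827, and the libraries of the 2 groups overlapped: 422 with Hit 2, at 132 CPM, lay above 411 and 429 with DMSO. The log2 difference was -0.27 (SE 0.13), with an unadjusted p of 0.0615 and an adjusted p of 0.898 by edgeR's quasi-likelihood test. The unadjusted p was 0.0474 by DESeq2 and 0.0196 by limma with a quality weight per library, with adjusted p of 0.902 and 0.981. The exact two-sided permutation test gave p = 0.0857, where 4 libraries against 4 allow no p below 0.0286. In this comparison 0 of 19378 genes (0%) passed by edgeR, 0 (0%) by DESeq2 and 0 (0%) by limma, and 301 had an unadjusted p under 0.05 by edgeR (1.55%).

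Marcksl1, which encodes the close relative of MARCKS, did not follow Marcks. It was at 11.2, 10.1, 7.27 and 5.51 CPM in WT DMSO libraries 413, 425, 426 and 431. In Het DMSO it was at 8.62, 35.9, 6.29 and 9.68 CPM in libraries 409, 411, 420 and 429, and in Het Hit 2 at 12.7, 7.12, 7.27 and 12.2 CPM in libraries 410, 421, 422 and 430. All 3 groups overlapped, and library 411 was the only one above 13 CPM.

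The Marcksl1 mean was 8.52 ± 2.61 CPM in WT DMSO, 15.1 ± 13.9 CPM in Het DMSO and 9.80 ± 3.02 CPM in Het Hit 2 (SD, n = 4 each). Relative to WT DMSO the log2 difference was 0.82 in Het DMSO (SE 0.49, edgeR adjusted p = 0.616), which became -0.04 without library 411. In Het Hit 2 it was 0.20 (SE 0.49, edgeR adjusted p = 1.000). Hit 2 against DMSO within Het mice gave -0.63 (SE 0.49, edgeR adjusted p = 0.898), and 0.22 without library 411. The exact permutation tests gave p = 0.571, 0.514 and 0.8 for these 3 comparisons.

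Gap43, the palmitoylated growth cone protein gene, had the highest level per length of the 4. It was at 90.3, 90.3, 97.9 and 64.5 CPM in WT DMSO libraries 413, 425, 426 and 431. In Het DMSO it was at 58.9, 173, 95.9 and 81.8 CPM in libraries 409, 411, 420 and 429, and in Het Hit 2 at 114, 78.7, 95.6 and 91.5 CPM in libraries 410, 421, 422 and 430. The lowest and the highest of the 12 values were thus the 2 libraries that stood apart, and the groups overlapped.

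The Gap43 mean was 85.8 ± 14.6 CPM in WT DMSO, 102 ± 49.4 CPM in Het DMSO and 95.0 ± 14.7 CPM in Het Hit 2 (SD, n = 4 each). Relative to WT DMSO the log2 difference was 0.25 in Het DMSO (SE 0.28, edgeR adjusted p = 0.713) and 0.15 in Het Hit 2 (SE 0.28, edgeR adjusted p = 1.000). Hit 2 against DMSO within Het mice gave -0.11 (SE 0.28, edgeR adjusted p = 0.931). Without library 411 the first of these became -0.11 and the last 0.24. The exact permutation tests gave p = 0.8, 0.429 and 0.971.

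Basp1 varied most, by 51.2-fold between its lowest and highest library. In WT DMSO libraries 413, 425, 426 and 431 it was at 23.0, 11.0, 4.29 and 3.72 CPM. In Het DMSO libraries 409, 411, 420 and 429 it was at 6.90, 190, 5.60 and 8.80 CPM. In Het Hit 2 libraries 410, 421, 422 and 430 it was at 65.2, 5.93, 5.82 and 41.1 CPM. High and low libraries occurred in every group, and over the 10 libraries without 409 and 411 the span was still 17.5-fold.

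The Basp1 mean was 10.5 ± 8.96 CPM in WT DMSO, 52.9 ± 91.6 CPM in Het DMSO and 29.5 ± 29.0 CPM in Het Hit 2 (SD, n = 4 each). Differences of these sizes were within the spread between libraries. Relative to WT DMSO the log2 difference was 2.33 in Het DMSO (SE 1.24, edgeR adjusted p = 0.616), and -0.54 without library 411. In Het Hit 2 it was 1.48 (SE 1.21, edgeR adjusted p = 1.000), with 0.73 when library 410 was left out and 2.20 when library 413 was. Hit 2 against DMSO within Het mice gave -0.85 (SE 1.18, edgeR adjusted p = 0.898), and 2.01 without library 411. The exact permutation tests gave p = 0.6, 0.343 and 0.943. Between 10.8% and 18.9% of the reads at Basp1 lay on the other strand, against at most 0.250% at Gap43, and the reads of that strand were not counted.

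With both Het groups together against WT DMSO, edgeR gave Marcksl1 a log2 difference of 0.51 (SE 0.43), Gap43 0.20 (SE 0.24) and Basp1 1.91 (SE 1.12), each with an adjusted p of 0.939. Without libraries 409 and 411 these were 0.04, 0.09 and 0.46, the last also without 411 alone. The exact permutation tests over 8 against 4 libraries gave p = 0.469, 0.586 and 0.368. None of these 3 genes passed in any of the 4 comparisons by edgeR, limma or DESeq2, and 0 had an unadjusted p under 0.05. Over all genes edgeR called 1 (0.00516%) for Het DMSO, 1 (0.00516%) for Het Hit 2 and 10 (0.0516%) for both groups together. DESeq2 called 43 (0.222%), 24 (0.124%) and 56 (0.289%), and limma with a quality weight per library 98 (0.506%), 221 (1.14%) and 343 (1.77%).

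**Figure D2:**
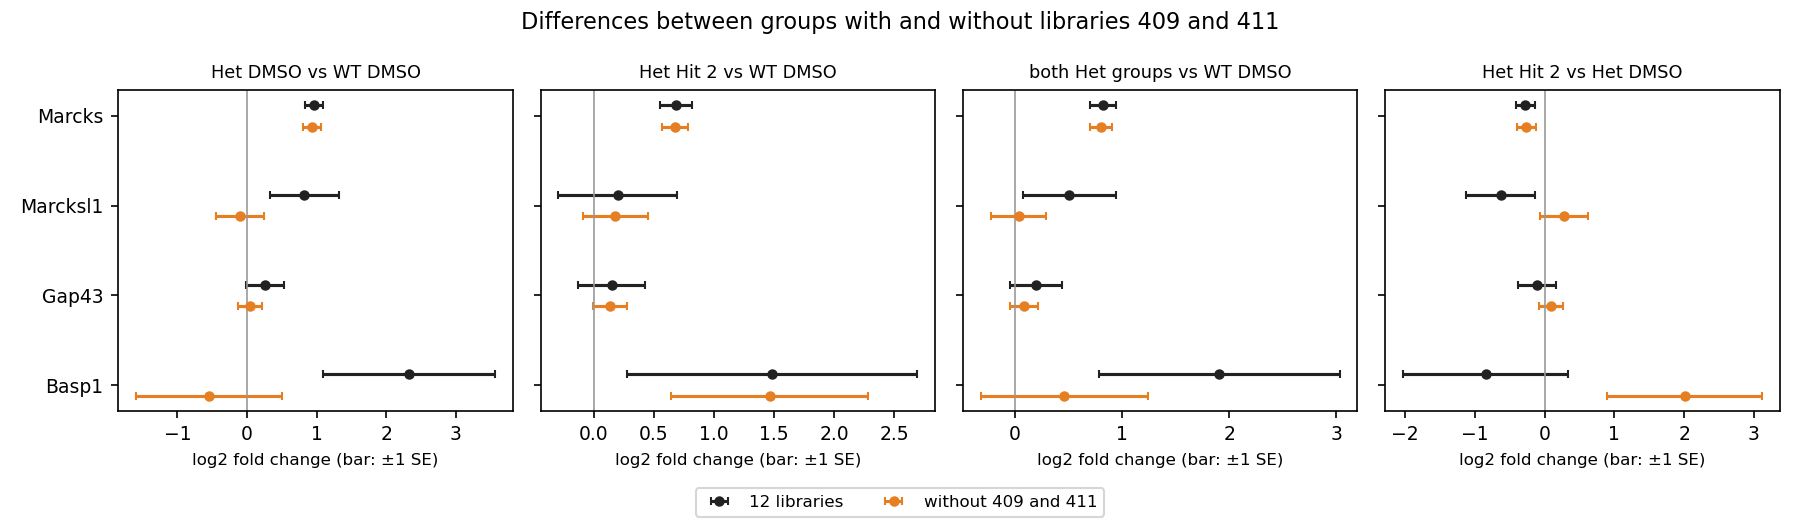
Fitted log2 fold change (x axis, bar ±1 SE) of each gene in the 4 comparisons, with all 12 libraries and without libraries 409 and 411. Marcks hardly moves when the 2 libraries are left out, while Basp1 within Het mice goes from -0.85 to 2.01.

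Per kilobase of exon, the order of mean levels in WT DMSO was Gap43 at 56.3 ± 9.59, Marcks at 17.0 ± 1.79, Marcksl1 at 5.31 ± 1.62 and Basp1 at 5.23 ± 4.46 CPM per kb (SD, n = 4). The last 2 differed by less than their spread. In Het DMSO the order was Gap43 at 67.2 ± 32.4, Marcks at 33.0 ± 3.58, Basp1 at 26.3 ± 45.6 and Marcksl1 at 9.43 ± 8.69 CPM per kb, and the spread of Basp1 spanned its neighbours. Over the 2 Het DMSO libraries other than 409 and 411 the means were 58.4 for Gap43, 32.7 for Marcks, 4.97 for Marcksl1 and 3.58 CPM per kb for Basp1, so the place of Basp1 rested on library 411. In Het Hit 2 Gap43 was at 62.4 ± 9.64, Marcks at 27.3 ± 3.98, Basp1 at 14.7 ± 14.4 and Marcksl1 at 6.11 ± 1.88 CPM per kb. Gap43 and Marcks kept the first and second place of these group means in all 3 groups.

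Marcksl1 and Basp1 ranked the libraries almost alike. Their Spearman rho was 0.95 over the 12 libraries and 0.92 over the 10 without 409 and 411, values that share library, dissection and depth and carry no test. Marcks and Marcksl1, the pair closest in sequence, had a rho of -0.02 over 12 and -0.07 over 10 libraries. The rho of Gap43 was 0.46 with Marcksl1, 0.36 with Basp1 and 0.08 with Marcks over 12 libraries, and 0.39, 0.21 and 0.39 over 10.

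The libraries high in Marcksl1 and Basp1 were also the highest in the summed midbrain and forebrain neuron markers. The 10 midbrain neuron markers summed to 443 CPM in library 411, 120 CPM in 410, 73.5 CPM in 430, 55.6 CPM in 413 and 44.9 CPM in 425. The other 7 libraries had 4.51 to 26.4 CPM. Slc17a6 made up most of the sum in 411, 410, 430 and 413, at 278, 84.6, 48.5 and 37.5 CPM, while in 425 it was at 15.6 CPM, below library 429 at 22.3 CPM. Slc17a6 is also known in neurons of the cerebellar nuclei. These 5 libraries were also the 5 highest for Marcksl1, for Basp1 and for 8 forebrain neuron markers, which summed to 37.8 CPM in 411 and to 5.57 to 14.5 CPM elsewhere. Of the 5 highest libraries for Marcks and Gap43, 1 and 2 were among them. In 411 the forebrain sum was mostly Drd2 and Lhx2, at 21.1 and 10.3 CPM. Tbr1 and Neurod6 of that list were at 0.454 and 1.36 CPM there, below every WT DMSO library.

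By group, the midbrain sum ran from 21.4 to 55.6 CPM in WT DMSO, 15.6 to 443 CPM in Het DMSO and 4.51 to 120 CPM in Het Hit 2. Of the midbrain list 5 of 10 markers, and of the forebrain list 5 of 8, had reads in every library. Foxa2, a transcription factor gene that marks midbrain dopamine neurons, was at 3.43 CPM in library 411, had no reads in library 410 and was at 0.0357 CPM in library 413. Not all of the list followed the sum. The dopamine synthesis gene Th was highest in 411 and 425, at 32.2 and 17.5 CPM, but was at 7.06, 4.46 and 6.60 CPM in libraries 410, 430 and 413, and at 11.4 and 13.1 CPM in WT DMSO libraries 426 and 431, where Slc17a6 was at 1.94 and 0.985 CPM. The rho with the midbrain sum was 0.82 for Basp1, 0.87 for Marcksl1, 0.42 for Gap43 and -0.39 for Marcks over 12 libraries, and 0.81, 0.89, 0.18 and -0.36 over 10. Of the glial lists, 3 ranked the libraries about as closely and 1 did not. Over 12 libraries the rho of Basp1 was 0.85 with oligodendrocyte precursor, 0.85 with microglia and 0.82 with oligodendrocyte markers, and that of Marcksl1 was 0.86, 0.82 and 0.86. With the Bergmann glia and astrocyte markers it was -0.02 for Basp1 and 0.08 for Marcksl1. For each of the 4 glial lists, 3 of its 5 highest libraries were among the 5 highest for Basp1. The choroid plexus list shared 4 and the endothelial cell list 3, with a rho to Basp1 of 0.43 and 0.32 over 12 libraries. The Purkinje cell, granule cell and molecular layer interneuron lists ran the other way, at -0.66, -0.61 and -0.73. The part of any of these cell types in the levels of the 4 genes was not tested.

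**Figure D3:**
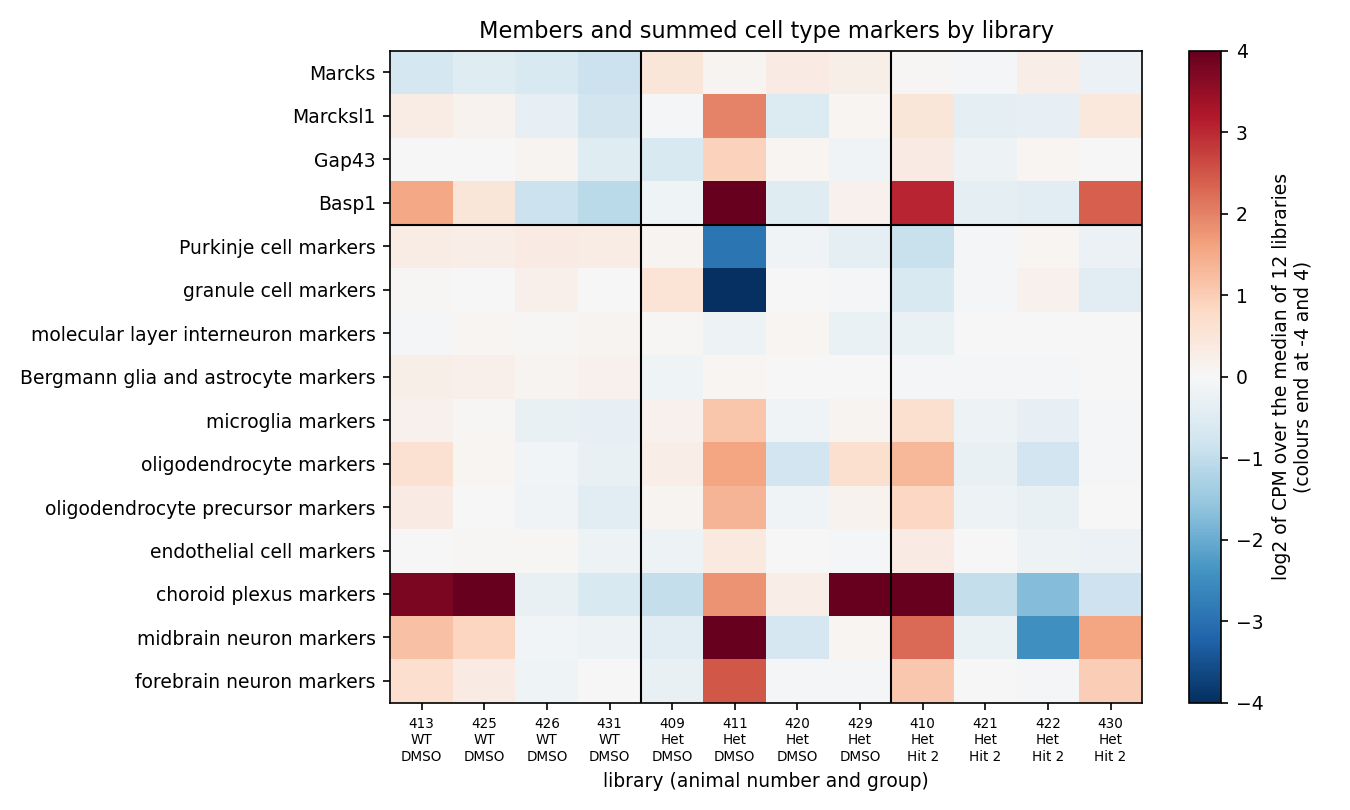
Heat map of the 4 genes and 11 summed marker lists (rows) in the 12 libraries (columns, by group), coloured by log2 of the CPM over its median of the 12 libraries. Library 411 is high for Marcksl1, Gap43, Basp1 and the midbrain and forebrain lists and low for granule and Purkinje cell markers, while the Marcks row splits by genotype.

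**Figure D4:**
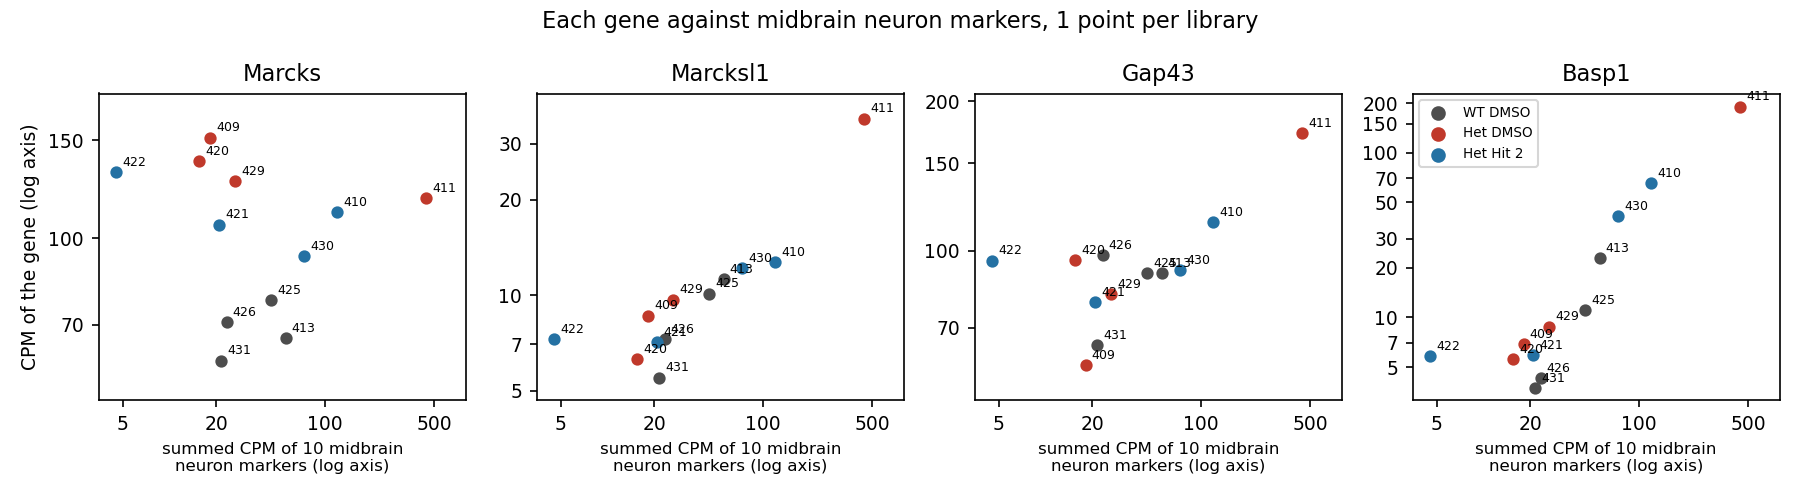
Level of each gene (y, log axis, CPM) against the summed CPM of 10 midbrain neuron markers (x, log axis), 1 point per library coloured by group. Basp1 and Marcksl1 are highest at the right, where library 411 lies at 443 CPM of midbrain markers, and Marcks is not.

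Other marker lists overlapped between the groups. Granule cell markers summed to 6097 to 7060 CPM in WT DMSO, 218 to 9123 CPM in Het DMSO and 4089 to 6901 CPM in Het Hit 2. Oligodendrocyte markers, genes of the myelinating cells, summed to 1813 to 3462, 1311 to 6691 and 1329 to 5604 CPM in the same order. Microglia markers summed to 79.9 to 114, 91.2 to 218 and 81.4 to 158 CPM. Choroid plexus markers ranged from 14.8 CPM in a Het Hit 2 library to 1913 CPM in Het DMSO library 429.

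The genes whose log2 CPM ranked the libraries most like each member were sought among 12450 genes with a mean of at least 5 CPM. For Marcks they were Slc44a5 (rho 0.95), Slc8a3 (0.95), Pdhb (0.94), Psme2 (0.92) and Cgn (0.90). Slc8a3, a sodium-calcium exchanger gene, was at 59.1 to 81.5 CPM in WT DMSO, 100 to 153 CPM in Het DMSO and 85.8 to 98.6 CPM in Het Hit 2. Slc44a5, of the choline transporter-like family, was at 8.46 to 9.52, 13.3 to 23.1 and 18.0 to 20.9 CPM. These genes were picked for ranking the libraries as Marcks does, so their lower values in WT DMSO follow from the choice and are no separate result.

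For Marcksl1 the 5 genes were Ccdc85a (rho 0.99), Gfra1 (0.99), Cobl (0.98), Fabp5 (0.97) and Vwa5b1 (0.97). For Basp1 they were Pcdh7 (1.00), Vstm2b (0.98), Gm1043 (0.98), Chrna4 (0.98) and Cachd1 (0.98). Chrna4 encodes a nicotinic acetylcholine receptor subunit and Gfra1 a receptor for the growth factor GDNF. For Gap43 they were Rpl31 (0.94), Gtf2b (0.92), Atpif1 (0.91), Rpl23a (0.89) and Plk2 (0.89), of which Rpl31 and Rpl23a encode ribosomal proteins. Over the 10 libraries without 409 and 411, 2 of the 5 genes were again among the 5 most alike for Marcks, 3 for Marcksl1, 1 for Gap43 and 2 for Basp1.

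**Figure D5:**
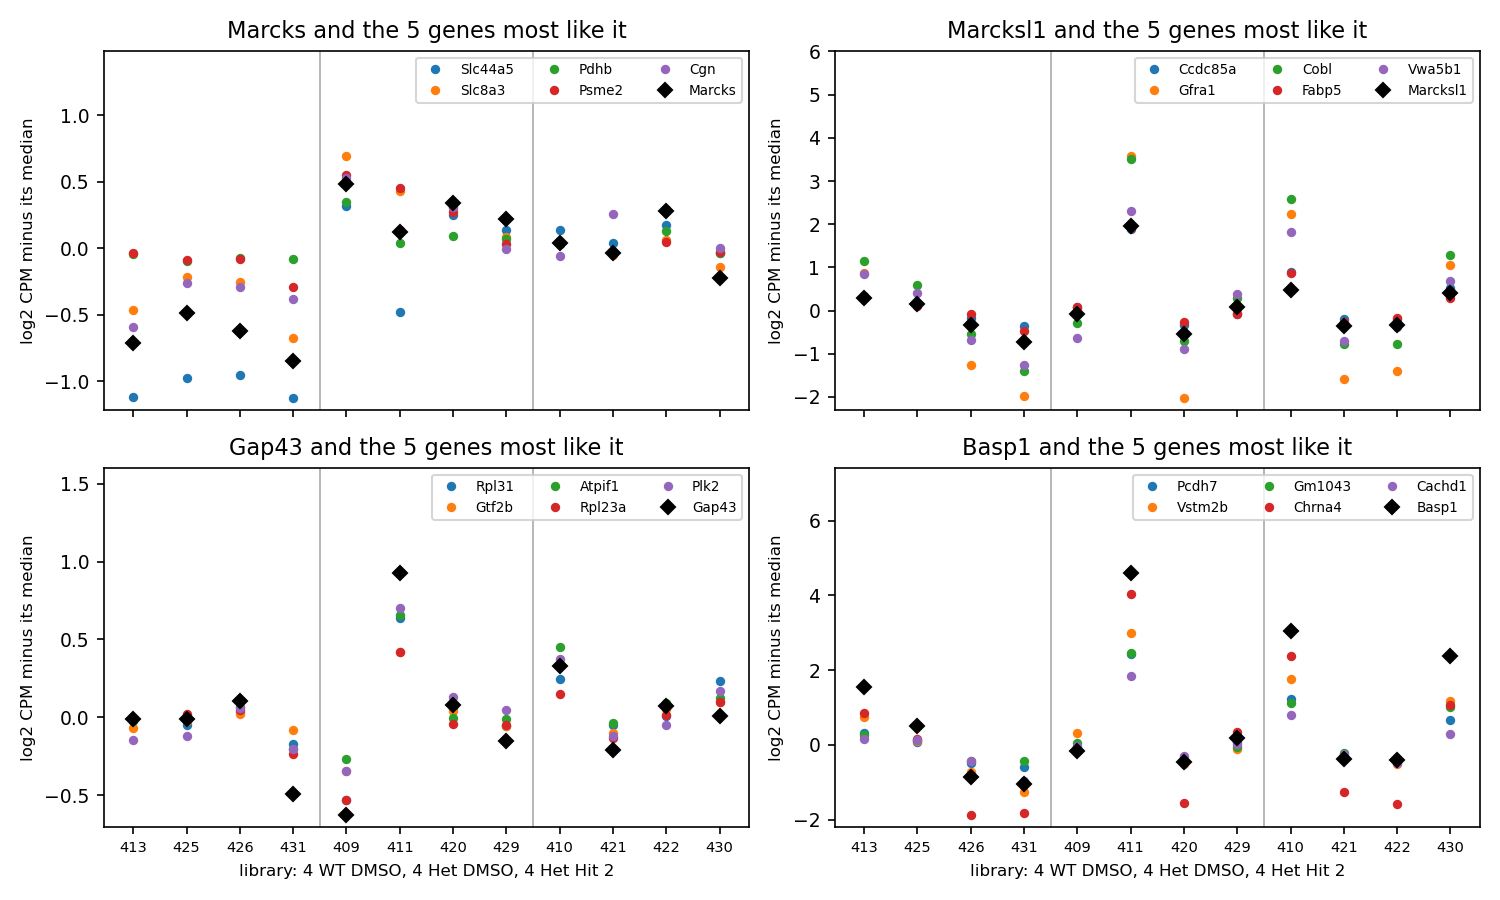
Log2 CPM minus its median over 12 libraries (y axis) of each member (black diamonds) and its 5 most alike genes (coloured dots), by library, with vertical lines between the groups. Slc44a5, Slc8a3 and Cgn, like Marcks, are lower in WT DMSO, and the genes around Marcksl1 and Basp1 peak in libraries 411 and 410.

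The 7 lists of genes that act with or near these proteins, 109 genes with 108 tested, held 0 genes past the threshold in any of the 4 comparisons by edgeR over 12 libraries or by DESeq2. By edgeR 8, 1, 5 and 2 of the 108 had an unadjusted p under 0.05 in Het DMSO, Het Hit 2 and both groups against WT DMSO, and in Hit 2 against DMSO, where 7.11%, 1.71%, 3.79% and 1.55% of all genes did. Limma with a quality weight per library called Hpcal1 for Het DMSO, Gnao1, Hpcal1, Pcp4 and Plcb3 for Het Hit 2 and for both groups, and 0 for Hit 2 against DMSO. Its calls over all genes in these 4 comparisons were 0.506%, 1.14%, 1.77% and 0%. Hpcal1 and Gnao1 encode a calcium sensor and a G protein subunit.

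Of 19 genes that make or use PIP2, the lipid that the MARCKS effector domain binds, the median log2 difference from WT DMSO was 0.06 in Het DMSO and -0.01 in Het Hit 2, beside 0.05 and 0.02 over all genes tested. The medians without libraries 409 and 411 were -0.07 and -0.02, beside -0.01 and 0.01. Plcb3, a phospholipase C that cleaves PIP2 and is prominent in Purkinje cells, was at 49.4 to 82.9 CPM in WT DMSO, 18.3 to 61.0 CPM in Het DMSO and 28.0 to 34.7 CPM in Het Hit 2. Without libraries 409 and 411 it was called lower by edgeR for Het Hit 2 (log2 -1.19, SE 0.15, adjusted p = 0.00989) and for both Het groups (log2 -0.99, SE 0.14, adjusted p = 0.0143). In that fit 90 (0.448%) and 122 (0.607%) of 20105 genes passed, 60 (0.298%) and 93 (0.463%) of them lower. Over 12 libraries the same differences were -1.18 and -0.996, with edgeR adjusted p = 1.000 and 0.501. Plcb3 did not pass for Het DMSO against WT DMSO without the 2 libraries (log2 -0.78, SE 0.19, edgeR adjusted p = 0.284). Within Het mice Hit 2 against DMSO gave Plcb4 0.32, Ocrl 0.18, Synj2 -0.53 and Plcb3 -0.36, and without the 2 libraries -0.07, 0.09, -0.23 and -0.41.

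Of 13 calmodulin genes and calmodulin partners, the median difference from WT DMSO was -0.05 in Het DMSO and 0.01 in Het Hit 2, and without libraries 409 and 411 -0.15 and -0.01. Pcp4, a small IQ-motif protein that binds calmodulin and is abundant in Purkinje cells, was at 29.1 to 39.0 CPM in WT DMSO, 1.97 to 25.1 CPM in Het DMSO and 15.8 to 23.3 CPM in Het Hit 2. Without libraries 409 and 411 edgeR called it lower for Het Hit 2 (log2 -0.83, SE 0.13, adjusted p = 0.0264) and for both Het groups (log2 -0.67, SE 0.12, adjusted p = 0.0415). Over 12 libraries the differences were -0.82 and -0.96, with edgeR adjusted p = 1.000 and 0.939. Pcp4 did not pass for Het DMSO against WT DMSO without the 2 libraries (log2 -0.52, SE 0.16, edgeR adjusted p = 0.516). Plcb3 and Pcp4 are Purkinje cell genes, and the Purkinje marker sums above were lower in the same groups. Their part in these 2 calls was not tested. Within Het mice Hit 2 against DMSO gave Camk2d 0.39, the neurogranin gene Nrgn 0.34, Pcp4l1 -0.37 and Calm3 -0.35. Without the 2 libraries these were 0.12, 2.64, 0.07 and 0.12.

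Of 9 protein kinase C genes, the kinases that phosphorylate MARCKS and GAP-43, the median difference from WT DMSO was -0.02 in Het DMSO and -0.04 in Het Hit 2, and without libraries 409 and 411 -0.03 and -0.05. Within Het mice Hit 2 against DMSO gave Prkcd 0.23, Prkcq -0.31 and Prkce -0.12, and without the 2 libraries -0.04, 0.13 and -0.07. Of 17 genes that add or remove the lipid anchors, such as the N-myristoyltransferases Nmt1 and Nmt2, the medians were 0.05 and -0.00 against WT DMSO, and -0.04 and -0.02 without the 2 libraries. Within Het mice Lypla1 gave 0.33, Metap2 0.19, Lypla2 -0.23 and Zdhhc7 -0.21. All 4 changed sign without the 2 libraries, to -0.10, -0.03, 0.18 and 0.09.

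Of 24 growth cone and axon growth genes, 21 lay above 0 in Het DMSO relative to wild type, with a median log2 difference of 0.33 beside 0.05 over all genes, and 2 were above 0 in Hit 2 against DMSO within Het mice, with a median of -0.23 beside -0.04. Without libraries 409 and 411 those counts were 12 and 17 of 24, and the medians -0.00 and 0.09, beside -0.01 and 0.01 over all genes. The 2 comparisons share the Het DMSO libraries. Dpysl3, which encodes a growth cone collapsin response mediator, was at 14.3 to 24.4 CPM in WT DMSO, 24.5 to 128 CPM in Het DMSO and 22.3 to 67.7 CPM in Het Hit 2. Its log2 difference from WT DMSO in Het DMSO was 1.51 (SE 0.54, edgeR adjusted p = 0.616), and 0.45 without the 2 libraries. Within Het mice Hit 2 against DMSO gave Stmn2 0.14, Klf7 0.03, Dpysl3 -0.64 and Dcx -0.49. All 4 changed sign without the 2 libraries, to -0.07, -0.28, 0.40 and 0.50.

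Of 8 RNA-binding protein genes known for regulating Gap43 mRNA, 7 were tested, with medians of -0.02 and -0.01 against WT DMSO and 0.07 for Hit 2 against DMSO. The values were 0.03, -0.02 and -0.03 without libraries 409 and 411. The neuronal Hu protein gene Elavl4 gave 0.12, Ptbp2 0.25, Elavl2 -0.54 and Khsrp -0.27 for Hit 2 against DMSO, and without the 2 libraries -0.03, -0.04, 0.29 and -0.08. Of 19 other myristoylated membrane protein genes, the median difference from WT DMSO was 0.17 in Het DMSO and 0.06 in Het Hit 2, and -0.12 for Hit 2 against DMSO. Without libraries 409 and 411 these were -0.03, 0.05 and 0.10. The Src family kinase genes Yes1 and Lyn gave 0.25 and 0.22 with Hit 2 against DMSO, the calcium sensor gene Hpca -0.54 and the formin gene Fmnl3 -0.45. Without the 2 libraries these were -0.15, -0.12, 0.33 and -0.07.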

How the data were processed

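Cerebellar RNA of 12 mice was sequenced. The deposited files hold raw read counts per gene for 1 library each, made by the authors with STAR 2.7.10a on GRCm39 (mm39), with FastQC 0.11.9 also listed, per the submitters' processing notes. The annotation release is not given in the sources used here. Opposite-strand counts were used, since 5.21% to 6.47% of gene reads lay on the other strand. Reads unassigned to a gene (44.7% to 54.6% of a library), multimapping (4.08% to 7.01%), unmapped (3.70% to 6.53%) or ambiguous (0.761% to 1.33%) stayed out of library sizes and tests. Symbols matched for 55141 of 55401 identifiers, through GENCODE M21. That annotation is of GRCm38, so no coordinates are given; Marcks lies on chromosome 10, Marcksl1 on 4, Gap43 on 16 and Basp1 on 15 in it. Exon lengths and GC content are from it too.

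Groups came from the labels. Genes were kept by filterByExpr, scaled by TMM and tested with edgeR 4.0.16 (R 4.3.3, quasi-likelihood, 1 coefficient per group, all 12 libraries, Benjamini-Hochberg over all genes tested, threshold 0.05), checked on simulated data. The SE beside an edgeR log2 difference is the size of that difference divided by the square root of its quasi-likelihood F statistic. Exact two-sided permutation tests were run on log2 CPM (prior count 2). The libraries are 1 per animal number; p-values measure the spread between these animals, and no libraries were paired. Alternatives included DESeq2 1.42.0 and limma 3.58.1 with library quality weights. The members and gene lists were chosen with earlier results of these data known. From each list the text names genes past the threshold in a fit, and the 2 highest and 2 lowest log2 differences for Hit 2 against DMSO within Het mice, at a mean of at least 5 CPM. Some items that this rule names are not reported here.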

Additional observations from a re-analysis of the deposited data

Results flagged for a closer look

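Of 45 checks for 1 library set apart from the other 3 of its group, 8 found one, where chance would give about 2.25. Of these, 5 were in Het DMSO library 411: Marcksl1 was at 35.9 CPM, with the next library of the group at 9.68 CPM. Basp1 was at 190 CPM there, with the next at 8.80 CPM. Midbrain neuron markers summed to 443 CPM (next 26.4), forebrain neuron markers to 37.8 CPM (next 6.42) and oligodendrocyte precursor markers to 338 CPM (next 142). Choroid plexus markers summed to 1913 CPM in Het DMSO library 429 (next 172) and to 940 CPM in Het Hit 2 library 410 (next 27.8). Molecular layer interneuron markers summed to 1023 CPM in library 410, below the next lowest at 1210 CPM. Marcks and Gap43 had no library set apart in this way in any group.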

How the results depend on the processing

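Depth limits Marcksl1 and Basp1 most, with as few as 101 and 83 reads in a library, against 1347 for Marcks and 1442 for Gap43. The direction of every Marcks difference held under all alternatives run. An offset on GC content, chosen after seeing the data, gave Marcks 1.09, 0.68, 0.89 and -0.41 for Het DMSO, Het Hit 2 and both groups against WT DMSO, and for Hit 2 against DMSO. Leaving out 1 library at a time gave Marcks 0.88 to 1.03, 0.59 to 0.75, 0.75 to 0.89 and -0.37 to -0.21. No member passed the threshold in a tested comparison under any alternative, and the edgeR, limma or DESeq2 adjusted p of Marcks for Hit 2 against DMSO ran from 0.624 to 0.994.

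Values of the other members changed sign in some comparisons when library 411 was left out. For Het DMSO against WT DMSO, leaving out 1 library gave Marcksl1 -0.0366 to 1.08, Gap43 -0.11 to 0.44 and Basp1 -0.54 to 3.04. Without libraries 409 and 411, Marcksl1 gave -0.10 and Basp1 -0.54, while Gap43 kept its sign at 0.0384. For Hit 2 against DMSO within Het mice, leaving out 1 library gave Marcksl1 -0.88 to 0.22, Gap43 -0.30 to 0.24 and Basp1 -1.58 to 2.01, and without both libraries they gave 0.28, 0.0941 and 2.01. Limma with library weights gave Marcksl1 -0.0222, -0.0483 and -0.0353 for Het DMSO, Het Hit 2 and both groups against WT DMSO, Gap43 -0.00867 for Het Hit 2 against WT DMSO, and Basp1 0.34 for Hit 2 against DMSO. Leaving out 1 library gave Marcksl1 0.03 to 0.36, Gap43 0.03 to 0.23 and Basp1 0.73 to 2.20 for Het Hit 2 against WT DMSO, and 0.07 to 0.67, 0.01 to 0.29 and 0.46 to 2.62 for both groups. The cause was not tested.

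Genes past the threshold numbered 1, 1, 10 and 0 for Het DMSO, Het Hit 2 and both groups against WT DMSO, and Hit 2 against DMSO. The last stayed at 0 under every alternative run. The first 3 became 43, 24 and 56 with DESeq2, 98, 221 and 343 with limma weights, and 18, 90 and 122 without libraries 409 and 411. With the sex covariate they were 1, 0 and 1, and with the GC offset 1, 3 and 19. Fitting only the groups compared gave 0 and 54, and no value for both groups together, since all groups then enter. For Het Hit 2, no filter gave 4 and unstranded counts gave 2. Leaving out 1 library gave 0 to 9, 0 to 14 and 1 to 38: 9, 14 and 20 without 411, 4, 5 and 38 without 409, and 0 for the first without 429. The cause was not tested. No paired analysis was possible because animal numbers do not recur between groups.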
